A study of Zea mays with 168 samples.

Results

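A maize cDNA microarray held 12160 spots, of which 5301 met the conditions given below. The 200 of these whose mean levels differed least between 16 genotypes are described here. Each carries an identifier of an expressed sequence tag (EST, a partial cDNA sequence) that stands on 1 spot only, which held for 11029 spots. Their deposited log2 values were set relative to the median of all spots in the same channel, 8 slides were left out, the 200 spots of highest mean level were set aside, and a mean level above 0 was required. This left 5301 spots, and the 200 of them (3.77%) with the smallest SD over the 16 genotype means are called the most even spots. The remaining 5101 are called the other spots. Because the most even spots were chosen by their genotype means, everything that follows about those means is a description without a test.

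The study measured polyadenylated RNA of whole primary roots of Zea mays, 3.5 days after germination, in 12 hybrids and their 4 inbred parent lines. Seedlings of every genotype grew in distilled water at 26 °C. A biological replicate was a pool of about 20 roots, and 2 replicates, one labelled with Cy5 and the other with Cy3, shared each slide. The hybrids were 002x005 (7 samples used), 002x250 (8), 002x301 (8), 005x002 (6), 005x250 (6), 005x301 (7), 250x002 (8), 250x005 (5), 250x301 (8), 301x002 (9), 301x005 (7) and 301x250 (8). The lines were 002x002 (16 samples), 005x005 (14), 250x250 (16) and 301x301 (19). Each name joins the parent lines in the order of the labels, and a pair of lines crossed both ways, such as 005x250 and 250x005, gives reciprocal hybrids.

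The primary root is the first root of the maize seedling, and hybrid seedlings are known for growing more vigorously than their inbred parents. Transcripts that stay level between genotypes are used in expression studies as references against which other transcripts are set. Housekeeping functions such as translation, the cytoskeleton and energy metabolism are where such references are usually sought. None of the most even spots had an identifier that matched a named gene in the reference annotation used here, and 6 of all spots with a single identifier did. The spots are therefore named by their EST identifier, and no function is given to any of them. Where an identifier stood on 2 spots, the levels of both spots had a rank correlation of only 0.215 over 397 such identifiers, which limits how far any single identifier can be trusted.

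Of 84 slides, 76 were used, each with 2 samples. Slides 472 and 48, left out by the rule, nearly repeated slides 26 and 28: after removal of each spot's mean, their channels correlated at 0.993 to 0.995 and at 0.952 to 0.970, whereas no pair of samples from different slides in use exceeded 0.860. The dye stated in the title and in the label field conflicted for 19 samples, not counting slide 930, where both titles name Cy3. With slide 930, 11 slides had conflicting dye labels. On all of these slides each channel's scanner values followed its own column of the value table (22 of 22 channels). Dyes were taken from the titles, except on slide 930, where the label field was used. Intensities depend on spot and slide, and depth has no meaning here. The number of samples per genotype, 5 to 19, limits the precision of each mean. RNA came from whole roots, so a level that differs can reflect fewer cells of a type or less RNA per cell, which cannot be told apart.

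The SD over the 16 genotype means had a median of 0.142 on the log2 scale over the most even spots (0.0859 to 0.159), and of 0.325 over the other spots. The limit cut through a continuum. The last 3 spots inside it were AI491560 at 0.1584, BM338714 at 0.1587 and BM341324 at 0.1589, and the first 3 outside it were AI619102 at 0.1590, AW225099 at 0.1590 and AI714910 at 0.1592. The difference between the highest and the lowest genotype mean had a median of 0.497 over the most even spots and of 1.16 over the other spots.

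Even genotype means did not come with equally even samples. The SD between samples of 1 genotype, pooled over genotypes, had a median of 0.488 over the most even spots (0.346 to 0.781) and of 0.769 over the other spots. For the most even spots, the SD over genotype means was 0.283 times the SD between samples of 1 genotype, as a median, against 0.422 times for the other spots. Averaging samples makes means less variable than single samples, and the spread within genotypes together with the numbers of samples gives the SD over means that would arise with no genotype difference if samples were independent of each other. The 2 samples of a slide were not, as described further on. This SD had a median of 0.167 over the most even spots and of 0.257 over the other spots. The observed SD over genotype means was 0.827 times this value in the most even spots (median, 0.468 to 1.14), and below it in 181 of the 200 (90.5%). In the other spots it was 1.27 times this value, and below it in 791 (15.5%). With slide as a fixed term in the fit, which removes what the 2 samples of a slide share, the same ratio had a median of 0.958 over these 200 spots and of 0.990 over the other spots, so that most of the gap between 0.827 and 1.27 was no longer there. Choosing the smallest SDs selects for a low ratio, and nothing more is read from it. The choice also depended on the setting: 14% of the 200 were chosen again without subtraction of channel medians and 6.5% with slide as a fixed term in the means, for which the median ratios over the spots then chosen were 1.03 and 0.6176.

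**Figure D1:**
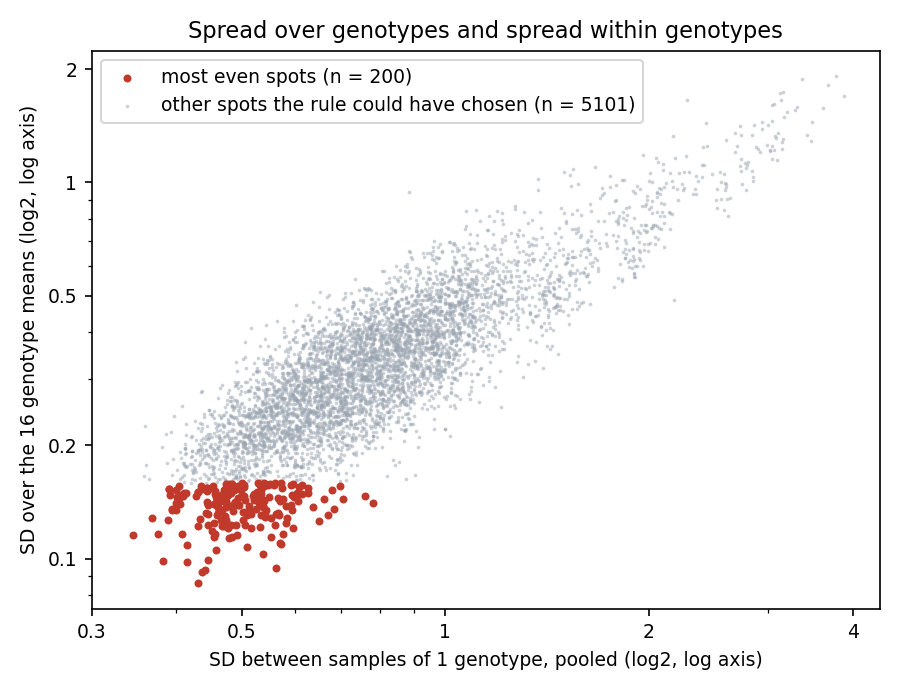
Each point is 1 spot, with the pooled SD between samples of 1 genotype on the x axis and the SD over the 16 genotype means on the y axis (both log2, log axes), the 200 most even spots in red and the 5101 other spots in grey. Both spreads rise together over the cloud, and the most even spots reach from 0.346 to 0.781 on the x axis below a flat upper edge at 0.159.

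Over all 5301 spots, SD over genotype means and SD within genotypes had a rank correlation of 0.815, and among the 200 most even spots of 0.117. Both are descriptions across spots that share slides and samples. A small SD within genotypes was common among the most even spots but was not theirs alone: 264 other spots (5.18%) had an SD within genotypes at or below the median of the most even spots, and 2662 (52.2%) at or below that of the most variable of them. The samples of all 16 genotypes had overlapping ranges in 197 of the 200 most even spots (98.5%), against 81.6% of all 5301. Overlap of ranges follows from means that lie close together, and nothing is read from this count.

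Of the 5301 spots that the rule could have chosen, AI855170 had the smallest SD over genotype means, 0.0859. Over all 11968 spots tested, including those outside the rule, the smallest was 0.0773. AI855170 had a mean level of 0.25 and an SD within genotypes of 0.430. Its single samples had levels between -0.67 and 1.39, with a median of 0.32. In hybrids, its mean level was 0.20 ± 0.29 in 002x005, 0.25 ± 0.43 in 002x250, 0.20 ± 0.57 in 002x301, 0.29 ± 0.24 in 005x002, 0.30 ± 0.36 in 005x250 and 0.16 ± 0.40 in 005x301 (SD, n as above). The other 6 hybrids lay in the same range. They averaged 0.18 ± 0.38 in 250x002, 0.13 ± 0.66 in 250x005, 0.33 ± 0.52 in 250x301, 0.37 ± 0.36 in 301x002, 0.20 ± 0.30 in 301x005 and 0.32 ± 0.57 in 301x250. The lines had means of 0.09 ± 0.43 in 002x002, 0.26 ± 0.45 in 005x005, 0.20 ± 0.40 in 250x250 and 0.38 ± 0.40 in 301x301. Every genotype held a sample as low as -0.14 and one as high as 0.44, so that all 16 groups overlapped, and the 5 samples of 250x005 alone had levels of -0.56, -0.26, -0.22, 0.80 and 0.88.

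BG842697 came second, with an SD over genotype means of 0.0924 and a mean level of 0.12. Its genotype means were highest in the hybrid 250x005, at 0.28, and lowest in the line 002x002, at 0.02, and its samples between -0.86 and 1.59 with a median of 0.17. Its groups were not equally tight: the 6 samples of 005x002 lay between -0.10 and 0.21, and the 9 samples of 301x002 between -0.76 and 1.59. AW065421 followed, with an SD over genotype means of 0.0931 the highest mean in the hybrid 301x005, at 0.41, and the lowest in the line 002x002, at 0.10. Its samples lay between -1.46 and 1.26 with a median of 0.26, and the lowest of them belonged to 250x301. In each of these 3 spots the line 002x002 had the lowest of the 16 means.

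**Figure D2:**
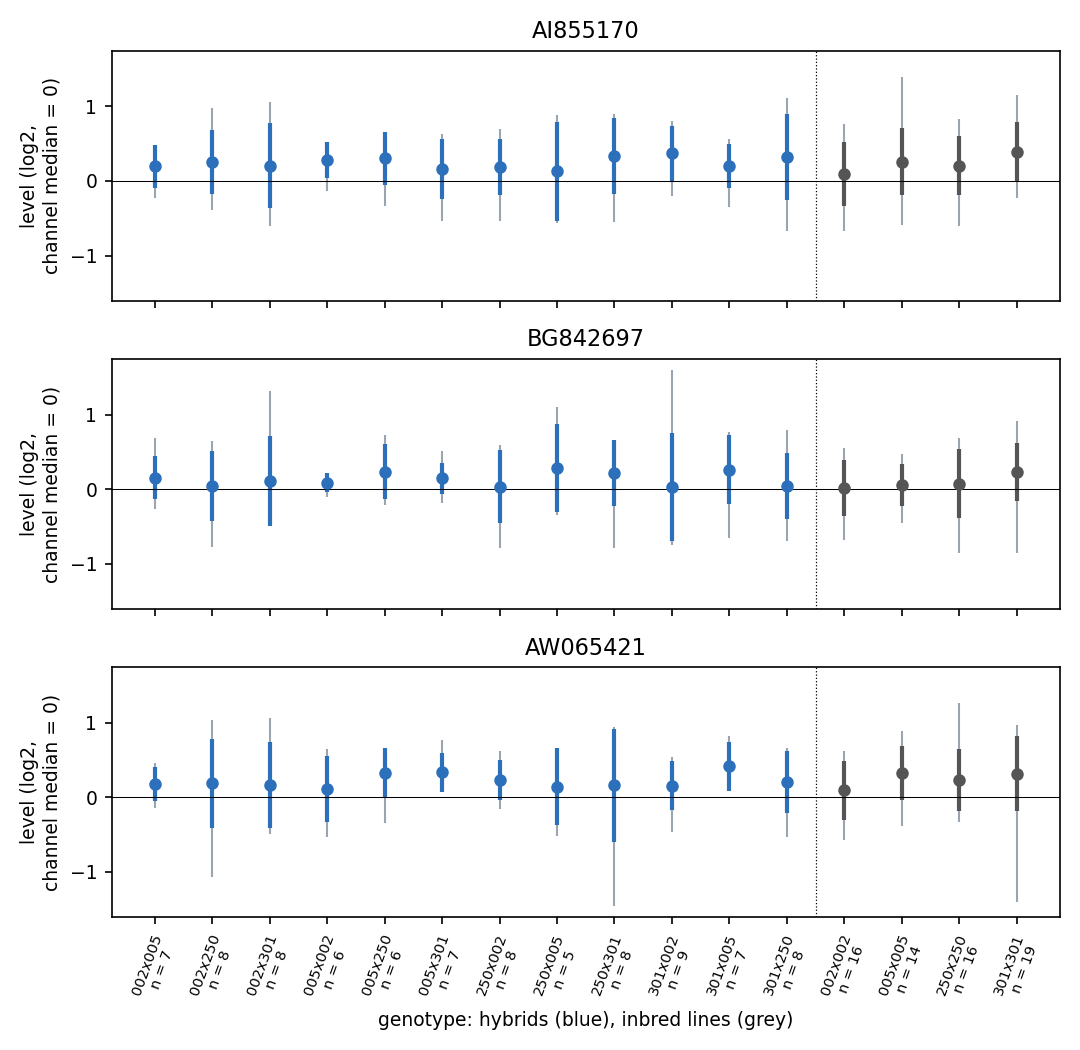
Levels of the 3 spots with the smallest SD over genotype means (log2, channel median = 0) by genotype, with hybrids in blue left of the dotted line and inbred lines in grey. Points are means, thick bars 1 SD and thin lines the lowest and highest sample, and the thin lines of AI855170 all cover the interval between -0.14 and 0.44.

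The next 9 spots had SDs over genotype means between 0.0943 and 0.110. AI691454 (0.0943) combined a mean level of 0.03 with an SD within genotypes of 0.562, and its samples ran from -1.67 to 1.38 with a median of 0.08. AI586651 (0.0978) lay at a level of 0.004, with samples from -2.13 to 0.88 around a median of 0.07. AI621501 (0.0987) was even in both respects, with an SD within genotypes of only 0.382 and samples from -0.56 to 1.29 around a median of 0.33. AI600935 (0.0994), AI714448 (0.105) and AI666020 (0.109) had SDs within genotypes of 0.446, 0.458 and 0.415. AI948300 (0.107) had a median of -0.03, with highest samples of 2.12 in 002x250 and 1.91 in 002x002. In AW231763 (0.103) and AI621923 (0.110), 1 or more samples stood far above the rest. Their highest samples had levels of 3.41 and 4.00, and their medians were 0.13 and 0.34. Even means were therefore found also where single samples lay several log2 units away.

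The 5 most even spots with the widest spread within genotypes were AW331811 (SD 0.781), AI619165 (0.761), BM332789 (0.707), AI901558 (0.698) and AI901925 (0.685). AW331811 had samples from -2.55 to 2.54 around a median of 0.15, and genotype means from 0.01 in 002x301 to 0.52 in 005x250. Its SD over genotype means, 0.140, was 0.468 times the SD that its spread within genotypes would give, the lowest such ratio of all 200. The 5 with the narrowest spread within genotypes were AI622223 (0.346), AW067252 (0.368), AI948323 (0.376), AI621501 (0.382) and AI665590 (0.389). AI622223 had samples from -0.67 to 1.21 around a median of 0.14, and its genotype means lay between -0.04 in 301x250 and 0.41 in 250x005. Its ratio was 0.909 and that of AW067252 was 1.02, so that in both the means lay about as far apart as independent replicates would give.

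The most even spots were mostly of middling level. Their mean level had a median of 0.21 (0.002 to 1.63), against 0.76 in the other spots. A level below 0.5 was found in 181 of them (90.5%) and in 1875 of the other spots (36.8%), and a level above 1 in 2 of them and in 2086 of the other spots (40.9%). These 2 were AW330684, at a mean level of 1.63 with an SD over genotype means of 0.126, and AW066573, at 1.57 with an SD of 0.145. AW330684 had samples between -0.46 and 4.50 around a median of 1.63, and AW066573 between -0.44 and 2.88 around 1.64. AI649849, BM269522 and AI600653 followed at levels of 0.92, 0.91 and 0.89.

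Over all spots with a single identifier, spread depended on level in a curve with its lowest point near the channel median. The median SD over genotype means was 0.370 for spots with levels of -1 to -0.75, 0.229 for levels of -0.25 to 0, 0.235 for 0 to 0.25, 0.353 for 1 to 1.5 and 0.480 for 3 to 5. The lower limit of 0 that the rule sets therefore passes through the levels where spots were most even, and 62% of the 200 most even spots had levels between 0 and 0.25. Subtraction of channel medians fixes the middle of each channel, and its part in this curve was not tested.

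**Figure D3:**
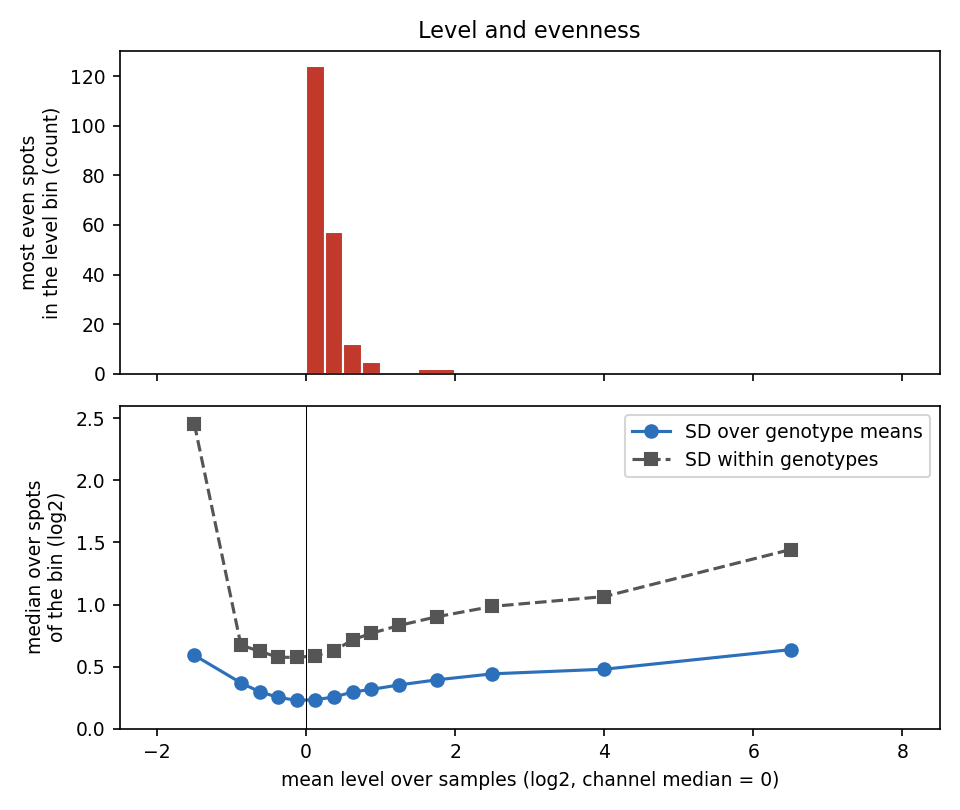
Above, the number of most even spots in bins of mean level (log2, channel median = 0), and below, the median over all spots of a bin of the SD over genotype means (circles) and of the SD within genotypes (squares), both log2. The most even spots crowd between 0 and 0.5, next to the lowest part of both curves.

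Such levels were above the array's background in most samples but not in all. Spots without an identifier at the edge of the print blocks served as background, and a sample was counted as above it where the level of a spot exceeded the 97.5th percentile of these edge spots in that channel. The most even spots were above background in 60.5% of samples (median, 50.7% to 92.8%) and the other spots in 71.7%. In scanner intensity they stood at 2.19 times the background spots (median, 1.74 to 6.91), against 3.37 times for the other spots. AW330684 reached 6.91 times background and AW066573 6.36 times. The background spots themselves were not even: their SD over genotype means had a median of 0.441, and 0 of them fell below the limit of the most even spots.

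The evenness was also present in the scanner values before the normalization of the deposited table. In these, scans of a channel were combined and channel medians subtracted. The SD over genotype means then had a median of 0.149 in the most even spots and of 0.342 in the other spots, and 199 of the 200 lay in the lowest 10% of the 5301. Both sources come from the same hybridisations.

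Samples that the rule did not use were compared at the same spots. The measure, distance from a spot's mean over samples in use, takes in spread within genotypes as well as between them. The most even spots had the smaller spread within genotypes (median SD 0.488 against 0.769), and the sets were not matched for spread or level. Nothing is therefore read from this comparison about evenness between genotypes. Of 12 samples on slides 0, 1, 18, 19, 288 and 289, 10 had the most even spots closer to their means than the other spots. The median absolute deviation from the mean over samples in use was 0.201 to 0.696 over the most even spots (median over the 12 samples 0.350) and 0.349 to 0.719 over the other spots (median 0.405). The 2 exceptions were the Cy5 sample of slide 18 (005x005), at 0.696 against 0.681, and the Cy3 sample of slide 19 (also 005x005), at 0.370 against 0.359. As a ratio of the most even to the other spots, the median was 0.778 in the 12 samples left out and 0.591 in the samples in use, by which the spots were chosen. The 4 samples on slides 48 and 472 were not counted, since they nearly repeat slides in use.

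The 12 hybrids and 4 lines did not contribute equally to what variation the most even spots had. The hybrid 250x005, with only 5 samples, had the largest median absolute deviation from a spot's mean, 0.145 against 0.289 in the other spots, and accounted for 10.7% of the variance of genotype means. It had the lowest of the 16 means in 39 of the 200 spots. All 5 of its samples were on slides 15, 16, 28, 44 and 46, within 1 range of slide numbers, described below. The Cy3 sample of slide 46 had a median deviation of -0.415 over the most even spots, against -0.135 to 0.053 in its other samples. The hybrid 250x301 had the highest mean in 31 spots, and the line 005x005 had the highest or lowest in 5. Hybrids held 341 of the 400 highest and lowest means (85.25%) and lines 59, but hybrids made up 12 of the 16 genotypes and had fewer samples each. The spread within genotypes over the most even spots had a median SD of 0.337 in 005x002 (6 samples) to 0.568 in 002x301 (8 samples).

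Against the mean of their parents, the hybrids deviated little at these spots. The median difference of hybrid minus mid-parent was lowest in 250x005, at -0.120, where 27% of the 200 spots lay above their parents. The limits given above for the samples of 250x005 hold here too. The median difference was highest in 250x301, at 0.030, with 56% of spots above. Over the 12 hybrids, the root mean square of the differences had a median of 0.154 in the most even spots and of 0.310 in the other spots. The mean of all hybrids minus that of all lines had a median of -0.035 in the most even spots (-0.158 to 0.079) and of -0.0018 in the other spots. It was above 0 in 55 of the most even spots (27.5%) and in 49.1% of the other spots. These values come from the genotype means that chose the spots and are given without a test.

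For the same reason the test of genotype is only descriptive here. In limma's moderated F test over the 16 genotypes, with slide as a random block and Benjamini-Hochberg adjustment over 11968 spots, 0 of the most even spots passed an adjusted p of 0.05, where 260 of all spots tested (2.17%) did. At an unadjusted p under 0.05 the counts were 7 of the most even spots (3.5%) and 1583 of all (13.2%). The lowest adjusted p among the most even spots, 0.0668, belonged to AI600442, whose means lay between 0.08 in 005x301 and 0.71 in 002x250.

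Whether spread between samples of 1 genotype differed between hybrids and lines was tested on the absolute deviations of samples from their genotype mean, a contrast the rule did not use. By limma, 0 of the most even spots passed in either direction. Over all spots, 0 (0%) had a larger and 4 (0.0334%) a smaller spread in hybrids than in lines. At an unadjusted p under 0.05, 3 of the most even spots were wider and 3 narrower in hybrids, against 196 and 854 of all 11968. The difference of smallest p was in BG873744, with a mean absolute deviation of 0.356 in hybrids and 0.271 in lines and a fitted difference of 0.082 ± 0.033 (SE; limma adjusted p = 0.401). AI979510 had 0.305 in hybrids and 0.40 in lines, and AI770555 had 0.496 in hybrids and 0.384 in lines. Neither passed. A p above the threshold does not show that spreads were the same: in the most even spots the fitted differences ran from -0.106 to 0.113.

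The 2 samples on a slide shared much of their deviation. Over the 76 slides, the deviations of the Cy5 and of the Cy3 sample from their genotype means had a correlation above 0 in all 200 most even spots, with a median of 0.643 (0.202 to 0.849), and a median of 0.707 in the other spots. The lowest value belonged to AW066586 and the highest to AI979707. Per the series text these samples are separate biological replicates, and they share the spot and the slide. With slide as a fixed term, the residual SD was 0.271 in the most even spots and 0.323 in the other spots (medians), well below the SDs within genotypes of 0.488 and 0.769 that include differences between slides. The SD over genotype estimates from that fit was 0.145 in the most even spots and 0.178 in the other spots, a smaller gap than the 0.142 and 0.325 of the plain means.

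The dye is a measure that the rule did not use. At an adjusted p of 0.05 in limma, with genotype as a term and slide as a random block, 53 of the most even spots (26.5%) were higher in Cy5 than in Cy3, against 951 of all 11968 spots tested (7.95%). None of the 200 was lower in Cy5, against 387 of all spots (3.23%). At an unadjusted p under 0.05, 78 of the most even spots (39%) were higher in Cy5, against 2024 of all spots (16.9%). At the same threshold 8 (4%) were lower, against 1134 of all spots (9.48%). The fitted difference of Cy5 minus Cy3 had a median of 0.062 in the most even spots and of 0.010 in the other spots, and was above 0 in 76.5% of the most even spots and in 53.8% of the other spots. Among the 53, it ran from 0.104 to 0.335 with a median of 0.143, and Cy5 was the higher channel on 44 to 59 of the 76 slides. The count of 53 became 75 with scanner values (13.1% of all spots tested) and 56 with all 84 slides (10.1%). It was 52 with slide range as a term (8.21%) and 40 with slide as a fixed term (6.66%). Under quantile normalization it was 32 (6.23%), and without the 11 slides of conflicting dye labels 33 (3.46%). With dyes from the label field it was 7 (1.01%), and without the slide as a block 0 (1 spot of all).

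**Figure D4:**
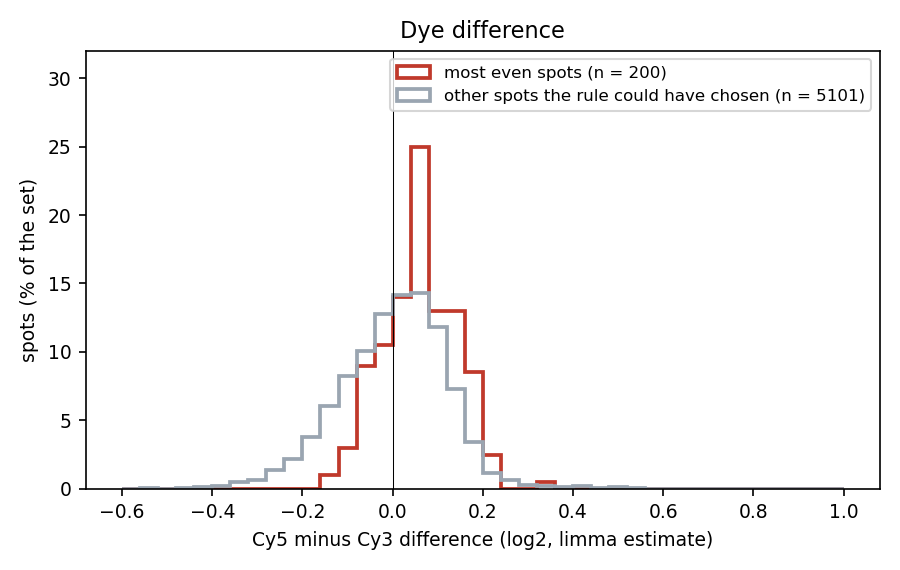
Distribution of the fitted Cy5 minus Cy3 difference (log2) over the 200 most even spots (red) and the 5101 other spots (grey), as a percentage of each set per bin. The most even spots are shifted to the right, with a median of 0.062 against 0.010, and none lies below -0.153.

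AI622101 had the largest dye difference. Its level in Cy5 was -0.80 at the lowest, 0.78 at the median and 3.35 at the highest over 76 slides, and in Cy3 -0.56, 0.52 and 1.49. The channels overlapped widely, with means of 0.779 ± 0.683 in Cy5 and 0.467 ± 0.459 in Cy3 (SD, n = 76 each), and the fitted difference was 0.33 ± 0.065 (SE; limma adjusted p = 0.000215, Cy5 higher on 56 of 76 slides). AI964609 had a smaller but steadier difference: its Cy5 levels ran from -0.29 over a median of 0.75 to 2.03, and its Cy3 levels from -0.70 over 0.60 to 1.47. The fitted difference was 0.23 ± 0.038 (SE; limma adjusted p = 1.4e-05), with Cy5 higher on 59 of 76 slides. AI714708, AI948033 and AI461507 followed with differences of 0.23, 0.23 and 0.21 and Cy5 higher on 52, 51 and 51 slides. Of the 12 most even spots, AW065421, AI691454, AI621501, AI600935, AI948300 and AI666020 were among the 53. The remaining 6 of the 12 did not pass.

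The same was seen at equal level. Among spots with levels of 0 to 0.5, 46 of 181 most even spots (25.4%) and 177 of 1875 other spots (9.44%) were higher in Cy5. The median dye difference was 0.061 in these most even spots and 0.0098 in the other spots, and its SE had a median of 0.041 and of 0.050.

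Slide numbers were divided at gaps in the numbering into 4 ranges, starting at 0 (25 slides), 273 (16), 471 (13) and 916 (22). The labels give the slide numbers but do not name these ranges. Fitted within each range, the median dye difference of the most even spots was 0.052, 0.091, 0.107 and 0.071. In the other spots it was 0.014, 0.029, 0.0081 and 0.060, closest to the most even spots in the range starting at 916. The dye difference was above 0 in 69% to 72% of the 200. Of all spots tested, 50.3%, 54.1%, 48.8% and 60.2% were above 0. In the range starting at 273, 21 of the 200 were called higher in Cy5 (2.82% of all spots tested) and 4 lower (2.7%). In the range starting at 471, 2 were called higher (1.13% of all) and 0 lower (0.0167%). In the ranges starting at 0 and 916, 0 were called higher (0% of all in both) and 0 lower (0.0334% and 0.00836%). The median was above 0 in every range, and the calls came from the 2 ranges with the fewest slides.

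The ranges also differed in level at a minority of spots. In limma's F test over the 4 ranges, with genotype and dye as terms, 11 of the most even spots (5.5%) passed an adjusted p of 0.05, against 1714 of all 11968 (14.3%). Among spots with levels of 0 to 0.5, 11 of 181 most even spots (6.08%) and 318 of 1875 other spots (17%) passed. As the genotypes are not evenly spread over the ranges, a shift between ranges also moves genotype means. The choice of the smallest SDs over those means therefore bears on both comparisons, and nothing is read from the lower shares. In all 11 called spots, the range starting at 471 held an extreme: its plain mean was the highest of the 4 in 6 and the lowest in 5. This range has the fewest samples, 26, and the other called spots were not counted in this way. The count is therefore not read as a trait of the most even spots. BG842316 had means of 0.15 ± 0.42, 0.15 ± 0.46, 0.48 ± 0.47 and -0.22 ± 0.28 in the ranges starting at 0, 273, 471 and 916 (SD, n = 50, 32, 26 and 44 samples; limma adjusted p = 0.00183). BE129943 was likewise high in the range starting at 471, at 0.63 ± 0.61 against 0.04, 0.11 and -0.05 in the others (limma adjusted p = 0.00319), whereas BG841352 was low there, at -0.19 ± 0.39 against 0.16, 0.42 and 0.41 (limma adjusted p = 0.00357).

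Genotypes are spread unevenly over the ranges, so evenness was also computed within each. The SD over the means of the genotypes present was 0.185, 0.177, 0.311 and 0.225 in the most even spots for the ranges starting at 0, 273, 471 and 916, and 0.341, 0.320, 0.611 and 0.386 in the other spots (medians). These ranges hold 10, 7, 6 and 9 genotypes with 2 or more samples. The order of both sets was the same in each range, but these are the samples by which the spots were chosen, and nothing is read from it. The ratio to the SD expected from the spread within genotypes was 0.866, 0.697, 1.10 and 0.986 in the most even spots. In the other spots it was 1.12, 0.944, 1.45 and 1.14 (medians). Samples of the range starting at 471 deviated most from the means of the most even spots, with a median absolute deviation of 0.394 against 0.279 to 0.293 in the other ranges.

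The most even spots were not spread evenly over the slide. In the order in which the spots are listed, the array has 32 print blocks of 380 spots in 8 rows and 4 columns. The first row of blocks held 0 most even spots among 336 spots that could have been chosen, and the second row 5 among 510 (0.98%). In the last 4 rows together, 4.96% of the spots that could have been chosen were among the most even, with the highest share in row 6 (50 of 698, 7.16%). By column, the shares were 1.98%, 5.03%, 4.83% and 3.21%. The SD within genotypes was largest where the shares were smallest, with a median of 1.91 in the first row of blocks and 0.93 in the second. In the other rows it was 0.70 to 0.74 and did not follow the shares. Row 6 had 0.741, and row 3, with a share of 2.74%, had 0.726. In the scanner values the first row had 2.11 and the second 0.99, so that the position was visible before normalization as well. The part of position in the choice of spots was not tested.

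**Figure D5:**
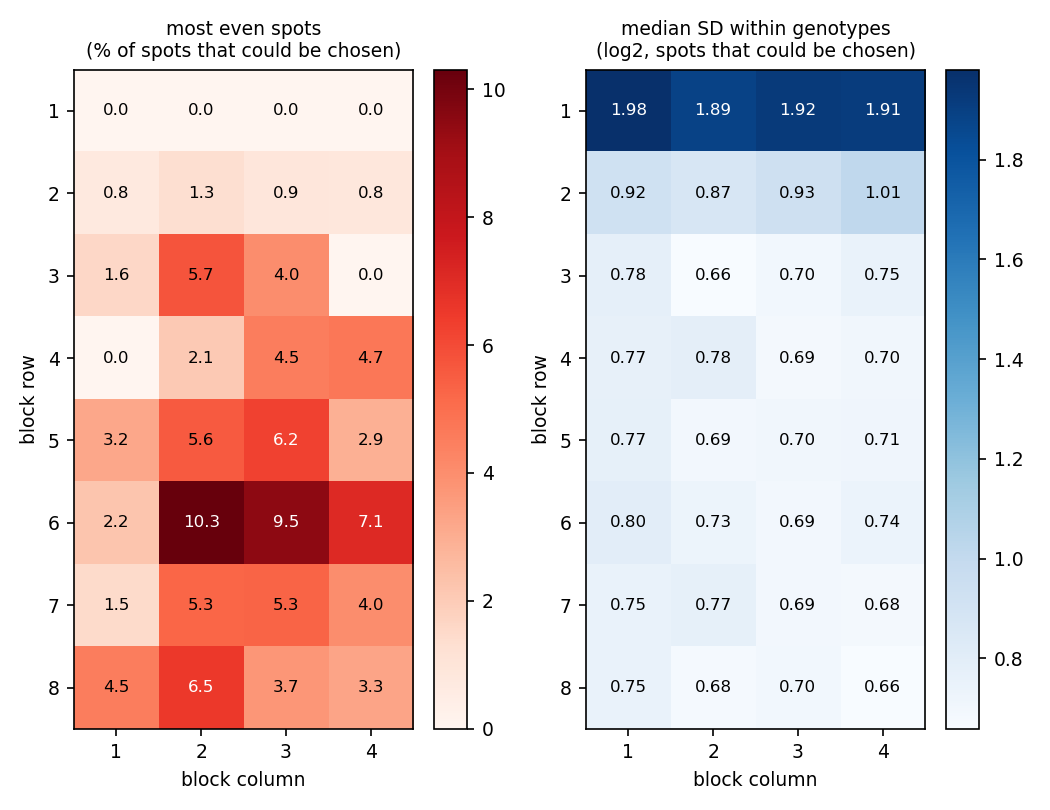
Map of the 32 print blocks (8 rows, 4 columns), with the percentage of choosable spots that are among the 200 most even on the left and the median SD within genotypes (log2) of all choosable spots on the right. The first row holds none of the most even spots and has a median SD within genotypes of 1.91 over its 336 spots.

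By EST series, 61% of the most even spots had identifiers beginning with AI and 40 (20%) with AW, 21 with BG, 14 with BM and 3 with BE. Among all 5301 spots, AI made up 53.4% and AW 27%. The prefix reflects when and by whom a tag was submitted and not what the transcript does.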

How the data were processed

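Levels are the deposited log2 values, for which the authors selected 1 scan per channel and normalized it, per the deposited notes, which do not describe the normalization. Values ran from 0 to 32.7, 3 were missing, and column medians, from 8.90 to 11.26, were subtracted. The authors also deposited linear scanner intensities of 3 to 7 scans per channel, raw per the deposited notes. Their rows were reordered by a rotation of each print block, after which 99.7% of spots matched their own row best. Of these, 991 scans were combined per channel and 14 left out, and 18 scan columns of no labelled sample were not used.

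Tests used limma 3.58.1 in R 4.3.3 on 11968 spots (2 with missing values left out), with Benjamini-Hochberg adjustment. Slide was a random block, whose correlation, from every 5th spot, was 0.79 for dye and genotype. Python 3.11.15 did the rest. On simulated data with 200 changed spots of 11968, the dye, slide range, spread and genotype tests called 100%, 98.5%, 100% and 99% of them. Of the unchanged spots they called 8, 10, 11 and 18. The planted changes were large, those of level near or above a spot's SD over samples, and the simulated slide correlation was below 0.79. These shares therefore do not show how often differences as small as those typical of the most even spots are found.

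Named were the 12 smallest SDs, the 3 spots on either side of the limit, the 5 highest levels, the 5 widest and 5 narrowest spreads within genotypes, the 5 largest called dye differences and the 3 smallest adjusted p for slide range and spread. AI600442, AW066586 and AI979707 were named after their values were seen. Members and lists were chosen with earlier results of these data known. Classes by gene description could not be applied, since no description was matched. Each replicate is labelled as an independent biological replicate. Alternatives covered slides, normalization, scanner values, dye source, block, slide ranges and the rule's own settings.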

Additional observations from a re-analysis of the deposited data

Results flagged for a closer look

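For the 3 spots with the smallest SD over genotype means, and for each sample's median absolute deviation over the 200 most even spots, the 12 hybrids (5 to 9 samples each) were searched for a sample whose gap to its nearest neighbour was large against the range of the group (Dixon's criterion). This applied to 4 of the 48 groups looked at, and chance gives about 1 in 20. The lines, with over 10 samples each, were not searched. BG842697 had a level of -0.796 in the Cy5 sample of 250x301 on slide 31, where the median of the 8 samples was 0.257. It had a level of 1.59 in the Cy3 sample of 301x002 on slide 997, where the median of the 9 samples was -0.327. AW065421 had a level of -1.07 in the Cy3 sample of 002x250 on slide 273, with a median of 0.263 over 8 samples, and of -0.341 in the Cy3 sample of 005x250 on slide 944, with a median of 0.430 over 6 samples.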

How the results depend on the processing

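Which spots are the most even depends strongly on the processing. Of the 200, 14% remained when column medians were not subtracted, 61.5% under quantile normalization, 58.5% with genotype medians in place of means, 6.5% with slide as a fixed term and 1% when the level had to exceed 1. Without the slide range starting at 0, 273, 471 or 916, 45%, 64%, 57% and 55.5% remained. With a limit of 100 spots, 50% remained by construction. With all 84 slides 78% remained, and with scanner values 73.5%. The median ratio of the SD over genotype means to that expected from the spread within genotypes, 0.827, became 1.03 without subtraction of medians, 1.006 for levels above 1 and 0.6176 with slide as a fixed term, each over the 200 spots then chosen. In the other 11 settings it was 0.734 to 0.884. Over the 200 spots described here, slide as a fixed term gave 0.958. The count of most even spots higher in Cy5, 53, was 75 with scanner values, 40 with slide as a fixed term and 32 under quantile normalization. It was 7 with dyes from the label field, 33 without the 11 slides of conflicting dye labels (chosen after seeing the data) and 0 without the slide block. The count lower in Cy5, 0, was 7 with all 84 slides and 1 with slide as a fixed term. The count with a genotype difference, 0, was 3 with all slides and 1 with slide range as a term. The causes were not tested. Over all 11968 spots, 7.95% were higher in Cy5, and 13.1% with scanner values, 6.66% with slide fixed and 6.23% under quantile normalization. The share was 1.01% with label-field dyes and 3.46% without the conflicting slides, and 1 spot was called without the block. Lower in Cy5 were 3.23%, and 5.26% under quantile normalization, 6.53% with scanner values, 6.58% with slide fixed, 0.150% with label-field dyes, 1.73% without the conflicting slides and 1 spot without the block. A genotype difference was called at 2.17%, and at 6.25% with all slides, 1.35% under quantile normalization, 0.226% with scanner values and 1 spot with slide fixed. Spots with a smaller spread in hybrids (4) were 9 with all slides, 47 under quantile normalization and 0 with scanner values or range as a term. The slide range and spread counts of the most even spots stayed within 1.5 times under every setting run. No paired analysis by replicate number was possible because these numbers are not shared between genotypes, and the pairing of samples on slides entered the fits as slide, random or fixed. Precision is limited by 5 to 19 samples per genotype and by signal near background.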
